A study of Mus musculus with 86 samples.

Results

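The difference between B2KO and C57BL/6 mice in the cardiac response to isoproterenol was examined gene by gene. Each gene's change in B2KO hearts (treated minus untreated) was set against its change in C57BL/6 hearts, and the difference between these 2 changes, B2KO minus C57BL/6, is called the response difference here. A positive value means a larger rise, or a smaller fall, in B2KO. The comparison used 40 of the 86 arrays of the series: 9 treated B2KO, 10 untreated B2KO, 10 treated C57BL/6 and 11 untreated C57BL/6 hearts. Treated mice had received a 14-day infusion of isoproterenol at 120 µg/g/day, and untreated mice had received no treatment, so the controls carried no vehicle infusion. The other lines of the series, FVB and B6129SF2/J, entered the filter on dim genes and the estimate of the spread, and their changes are given at a few points for comparison. The groups were taken from the sample titles, and the labels describe heart RNA and random assignment to treatment. They give no age, expand the name B2KO no further, and say nothing of the genetic background on which that line is kept, so a difference between the lines can come from the background as well as from the alteration the name refers to. The series describes lines that differ in how heart function changed under the infusion. Arrays were labelled with separate replicate numbers, and p-values measure the spread between arrays.

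Isoproterenol is an agonist of beta-adrenergic receptors. In heart muscle these receptors act through a stimulatory G protein on adenylyl cyclase, and the cyclic AMP that is formed activates protein kinase A, which phosphorylates proteins of calcium cycling, the contractile apparatus and the transcription factor CREB. CREB binds the cyclic AMP response element, TGACGTCA, and its half-site TGACG, and drives immediate early genes such as Fos. Sustained stimulation is known for hypertrophy, fibrosis with deposition of matrix proteins, and desensitisation of the receptors.

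Fos, Junb and Btg2, immediate early genes, are prominent among the genes with a smaller response in B2KO, and the 250 bases upstream of their start sites are shown here because these genes are classical targets of CREB. The sequences are from RefSeq on assembly GRCm38.p6, written 5′ to 3′, with cyclic AMP response element half-sites (TGACG or its reverse complement CGTCA) in capitals, so that a complete element appears as TGACGTCA.
Fos, chr12:85473640-85473889, plus strand: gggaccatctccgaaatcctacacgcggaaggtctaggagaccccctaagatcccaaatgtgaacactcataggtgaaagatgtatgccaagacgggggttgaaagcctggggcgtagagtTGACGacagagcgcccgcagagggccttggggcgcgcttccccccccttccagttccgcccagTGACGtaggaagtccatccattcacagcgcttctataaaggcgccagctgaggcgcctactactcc
Junb, chr8:84978749-84978998, minus strand: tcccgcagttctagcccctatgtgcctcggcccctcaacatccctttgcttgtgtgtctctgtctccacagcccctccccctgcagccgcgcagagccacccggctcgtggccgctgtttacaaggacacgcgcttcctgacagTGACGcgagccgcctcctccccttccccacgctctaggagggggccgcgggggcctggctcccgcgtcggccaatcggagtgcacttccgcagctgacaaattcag
Btg2, chr1:134079156-134079405, minus strand: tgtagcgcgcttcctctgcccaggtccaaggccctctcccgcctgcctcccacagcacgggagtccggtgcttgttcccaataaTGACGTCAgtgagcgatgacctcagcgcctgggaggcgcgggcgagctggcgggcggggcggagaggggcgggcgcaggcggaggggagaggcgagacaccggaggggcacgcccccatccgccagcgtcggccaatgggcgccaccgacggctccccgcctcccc
Fos carried 2 separate half-sites, Junb 1, and Btg2 a complete element. A half-site on either strand was present in 17.8% of 32851 promoter windows of this length and a complete element in 1.5%. Of the 9 immediate early genes with a smaller response in B2KO, 7 had a promoter window, and 5 of these 7 held a half-site and 2 a complete element. Among the other genes of the list, 14 of 23 windows (16 genes) held a half-site and 1 a complete element. These letters are a description of the windows and were not tested against the responses.

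Values are log2 of the intensity deposited by the authors, in which each array had been scaled to a median of 1, so that 0 is the array median. Hearts of all 4 groups showed the cardiac genes at high levels: the alpha myosin heavy chain gene Myh6 lay between 11.32 and 12.59 in treated B2KO, between 11.26 and 12.53 in untreated B2KO, between 11.54 and 12.07 in treated C57BL/6 and between 11.04 and 12.08 in untreated C57BL/6 hearts. Of 11 treated B2KO arrays, 2 were not used: replicate 10 correlated with the other arrays at a median r of 0.573, and replicate 9 repeated replicate 4 (r = 0.99999976). Among the arrays used, 2 had a 3′ Gapdh control signal far above the 5′ signal, untreated B2KO replicate 8 (by 7.31) and untreated C57BL/6 replicate 11 (by 7.43), and untreated B2KO replicate 1 was female by Xist. Treated B2KO replicate 7 was in doubt by strain at marker probe sets. Lung surfactant genes were near or below the array median, except for 1 untreated B2KO array whose summed level of 9 lung epithelial markers was 206 times the array median, where the other 3 groups reached at most 7.57.

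The poly-A control probe sets, which read bacterial transcripts that are added to a sample before labelling and not mouse RNA, differed between the groups. Their mean signal lay between −2.10 and 6.83 (median 1.73) in treated B2KO, between −1.02 and 4.17 (median 2.97) in untreated B2KO, between 2.69 and 7.76 (median 6.24) in treated C57BL/6, and between −0.49 and 3.13 (median 0.72) in untreated C57BL/6 arrays. All but 2 of the untreated C57BL/6 arrays read below 2, under every treated C57BL/6 array. In the lines given for comparison the medians ran the other way. They were 0.45 in treated and 4.00 in untreated FVB arrays, and −0.55 in treated and 2.06 in untreated B6129SF2/J arrays. In a fit with this signal as a covariate, the slope passed the threshold for 1750 of 11961 genes (14.6%). The labels name no batch, and this signal moves with treatment within C57BL/6. Values with the covariate are therefore given for most genes described in detail. They are also given for each other named gene past the threshold that the covariate moved by over 1.5 times. Of the 67 genes named here that passed the threshold, 2 also passed with the covariate.

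**Figure D1:**
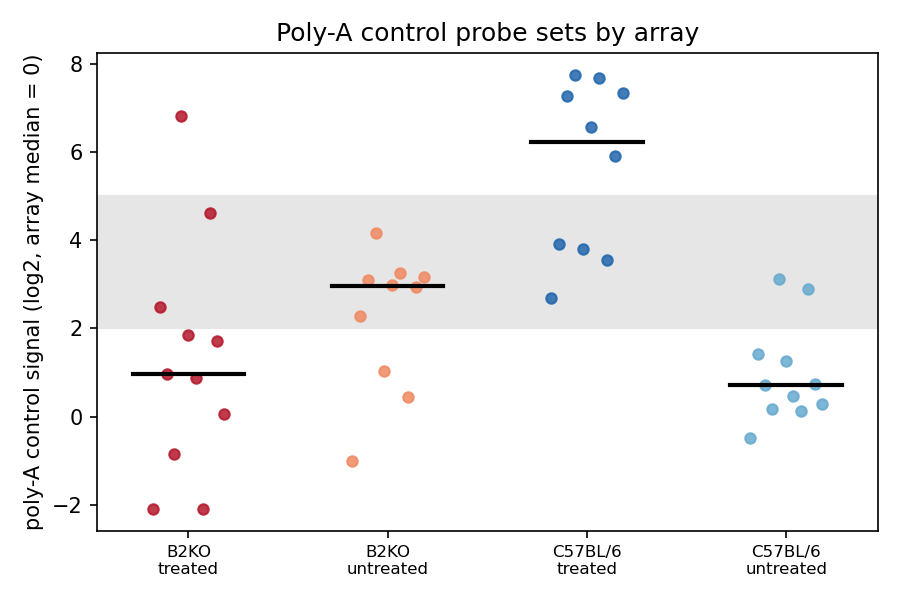
Poly-A control signal (y axis, mean log2 of the dap, lys, phe and thr control probe sets relative to the array median) in each array of the 4 groups (x axis), with points for arrays and lines for medians. Treated C57BL/6 arrays have a median of 6.24 and untreated C57BL/6 arrays one of 0.72, and the grey band marks the range from 2 to 5, in which each of the 4 groups has arrays. The treated B2KO points include replicates 9 and 10, which the comparison left out. Their line is therefore not the median of 1.73 of the 9 treated B2KO arrays used.

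The response differed between the lines at 670 of 11961 genes (5.6%; limma, adjusted p under 0.05), of which 160 were higher in B2KO (1.34%) and 510 were lower (4.26%). At the genes that were lower, the median change was −0.24 in B2KO hearts and 1.03 in C57BL/6 hearts, and at the genes that were higher it was 0.25 in B2KO and −1.15 in C57BL/6. Over all genes tested the medians were −0.08 in B2KO and 0.09 in C57BL/6. Taken by line, isoproterenol changed 43 genes in B2KO (0.36%; 13 or 0.109% higher and 30 or 0.251% lower) and 3243 genes in C57BL/6 (27.1%; 2151 or 18% higher and 1092 or 9.13% lower). Of the 510 genes with a lower response in B2KO, 5 changed past the threshold in B2KO and 466 in C57BL/6, and of the 160 with a higher response 0 did so in B2KO and 149 in C57BL/6. In the FVB line, whose arrays enter neither change, the same genes had median changes of 0.10 (the 510) and −0.05 (the 160), and in B6129SF2/J of −0.03 and 0.05.

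**Figure D2:**
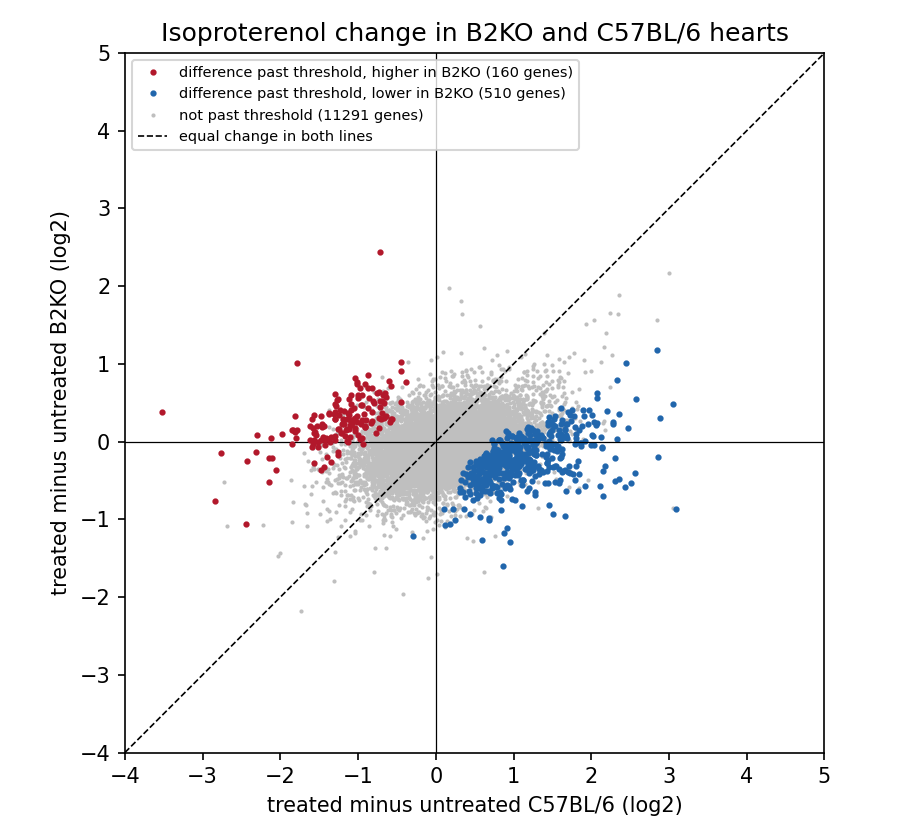
Change with isoproterenol in B2KO hearts (y axis, log2, treated minus untreated) against the change in C57BL/6 hearts (x axis, same unit), 1 point per gene, with the 160 genes higher in B2KO in red, the 510 lower in blue and the dashed line at equal change. The coloured points spread along the C57BL/6 axis and lie near 0 on the B2KO axis.

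The scaling of the arrays set the balance of directions. The median response difference of all genes was −0.185, and with quantile normalization, where that median was 0.02, 500 genes were higher in B2KO and 388 lower. After centring of every array on its own genes, 448 were higher and 314 lower. With the poly-A control signal as a covariate, 8 genes (0.0669%) passed the threshold, 2 higher and 6 lower in B2KO. All 670 genes kept their direction in that fit, as did 9477 of all 11961 genes tested, and the median was 1.13 for the 160 and −0.92 for the 510. The 670 had been picked by their difference in the same arrays, so a kept direction is no separate support. Restricted to arrays with a control signal from 2 to 5 (2 treated and 7 untreated B2KO, 4 treated and 2 untreated C57BL/6), 1 gene passed, and 120 of the 160 and 421 of the 510 kept their direction, with medians of 0.49 and −0.41. Of all 11961 genes, 6784 kept their direction in these arrays. Of the 67 named genes past the threshold, 10 turned their sign there, among them Uroc1, Aif1l, Pde2a, Timp3, Acads, Pdp1 and Gclm.

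The 8 genes that passed with the covariate were Ppp1r35, Zbtb12, Ier5l, Snhg11, Emilin2 and Mtss2, with smaller responses in B2KO, and Zfp420 and Acer3, with larger ones. They were picked out after the values of that fit were seen. Zbtb12 encodes a zinc finger protein. It lay between −1.05 and 1.22 (median −0.37) in treated B2KO and between −1.19 and 1.12 (median 0.42) in untreated B2KO hearts. In C57BL/6 it lay between 0.70 and 2.12 (median 1.16) in treated hearts and between −2.73 and 0.63 (median −1.06) in untreated hearts, with no overlap. The response difference was −2.84 ± 0.46 (SE; limma adjusted p = 0.000202), and −2.13 with the covariate (limma adjusted p = 0.0407). Ppp1r35, which encodes a protein of the centriole, lay between −2.25 and 0.77 (median −0.49) in treated B2KO and between −1.33 and 1.02 (median −0.07) in untreated B2KO hearts. Its treated C57BL/6 values, −0.02 to 1.61 (median 0.53), all exceeded its untreated C57BL/6 values, −2.76 to −0.15 (median −1.73). The response difference of Ppp1r35 was −2.80 ± 0.47 (limma adjusted p = 0.000256) and −2.70 with the covariate (limma adjusted p = 0.0094). Emilin2, an elastin-associated matrix glycoprotein, had a response difference of −1.68 and −1.46 with the covariate (limma adjusted p = 0.0331). Acer3, an alkaline ceramidase, had 1.08 and 1.54 with the covariate (limma adjusted p = 0.0407). Ppp1r35 was above the array median in the mean of treated C57BL/6 alone (0.67), so it entered the test only through that group.

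Such genes had to differ to be tested at all. Of the 11961 genes, 450 entered through the mean of a single group, and so did 60 of the 670 and 7 of the 67 named genes past the threshold. Acaa1b (1.15), Dvl3 (0.18), Ppp1r35 and Il34 (0.23) did so through treated C57BL/6, and Mdfi (1.10), Cyp4a31 (0.19) and Tuba3b (0.05) through untreated C57BL/6. Genes past the threshold that are described below without a covariate value, and that the covariate moved by over 1.5 times, were Dvl3 (−1.78 with the covariate), Sik1 (−1.30), Ier2 (−1.23), Clec3b (−0.97), Nfil3 (−1.0), Inhbb (−0.93), Cldn5 (−0.65), Kdr (−0.65), Acads (−0.55), Pde2a (−0.54), Igfbp5 (−0.49), Ldb3 (−0.39), Uroc1 (0.95), Aif1l (0.83) and Pdp1 (0.70). Named genes that had not passed moved as well, among them Timp1 (−0.19 with the covariate), Postn (−0.14), Col3a1 (−0.1), Nppa (−0.16) and Hspa1a (−1.0). Nr4a3 (0.39) and Nppb (0.32) turned their sign. None of these passed in that fit by limma with adjusted p under 0.05.

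Immediate early genes and CREB targets had the most members with a smaller response in B2KO among the lists described. Of 30 tested, 9 were lower in B2KO (against 4.26% of all genes) and 0 were higher. The list's median response difference was −1.08, which is −0.89 relative to all genes, and it was −0.64 with the covariate. Its median change was −0.06 in B2KO, where 0 members changed (0.36% over all genes), and 0.96 in C57BL/6, where 18 rose (18% over all genes). Fos, a subunit of the transcription factor AP-1, lay between −0.49 and 3.37 (median 1.78) in treated B2KO hearts and between 0.21 and 6.31 (median 1.12) in untreated B2KO hearts. In C57BL/6, Fos lay between 0.69 and 8.62 (median 4.33) in treated hearts and between −0.11 and 2.22 (median 1.13) in untreated hearts. The treated C57BL/6 group was split, with 6 of 10 hearts above every untreated C57BL/6 heart, and 1 untreated B2KO heart reached the range of those 6. The arrays of those 6 hearts had poly-A control signals of 5.92 to 7.76, and the other treated C57BL/6 arrays had 2.69 to 3.91. Whether the split has to do with that signal was not tested. The response difference of Fos was −3.05 ± 0.91 (limma adjusted p = 0.0335), and −1.46 with the covariate (limma adjusted p = 0.636). Leaving out single arrays ended this call in 7 of 40 cases, and so did a fit of only the 4 groups (limma adjusted p = 0.104). The SD of Fos was 2.92 in treated C57BL/6 and 0.77 in untreated C57BL/6 hearts.

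Junb, a partner of Fos in AP-1, lay between 1.77 and 3.03 (median 2.39) in treated B2KO and between −1.06 and 3.81 (median 2.01) in untreated B2KO hearts. It lay between 1.87 and 6.30 (median 2.88) in treated C57BL/6 and between −1.08 and 1.78 (median 0.32) in untreated C57BL/6 hearts. All 10 treated C57BL/6 hearts exceeded all untreated ones, whereas the treated and untreated B2KO hearts overlapped. The response difference was −2.58 ± 0.61 (limma adjusted p = 0.008) and −1.63 with the covariate (limma adjusted p = 0.346). Btg2, an antiproliferative immediate early gene, lay between 3.38 and 5.07 (median 4.03) in treated B2KO and between 2.06 and 7.54 (median 4.34) in untreated B2KO hearts. In C57BL/6 hearts it lay between 3.55 and 8.75 (median 4.45) with treatment and between 1.82 and 4.07 (median 2.98) without. Treated C57BL/6 replicates 4 and 8 stood apart, at 8.56 and 8.75 for Btg2, where the others lay between 3.55 and 4.96. For Junb these arrays read 6.30 and 6.01, where the others lay between 1.87 and 3.76, and for Fos they read 8.62 and 8.55. Fits that leave out 1 array do not remove this pair. For Btg2 the response difference was −2.68 ± 0.58 (limma adjusted p = 0.00374), and −2.13 with the covariate (limma adjusted p = 0.169). The salt-inducible kinase Sik1 (−2.07 ± 0.48) and Ier2 (−2.04 ± 0.48) were also lower, with limma adjusted p of 0.00672 and 0.0074. The orphan nuclear receptor gene Nr4a3, whose response difference was −1.05 ± 0.74, did not pass (limma adjusted p = 0.422).

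Untreated hearts of the lines were not alike at these genes. Untreated B2KO exceeded untreated C57BL/6 by 1.59 for Junb, by 1.64 for Btg2 and by 1.46 for Sik1 (limma adjusted p = 0.00497, 0.00201 and 0.000896), whereas for Fos the difference was 0.71 (limma adjusted p = 0.499). Across all genes, 1689 differed between untreated B2KO and untreated C57BL/6 hearts (14.1%; 871 or 7.28% higher and 818 or 6.84% lower in B2KO). The untreated arrays enter both this difference and the response difference, so the values are given side by side only. At the 510 genes with a lower response in B2KO the median untreated difference was 0.59, and at the 160 with a higher response it was −0.86. A probe over a sequence difference between the lines can shift an untreated difference without a change of RNA. Whether such probes also alter the response difference was not tested.

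**Figure D3:**
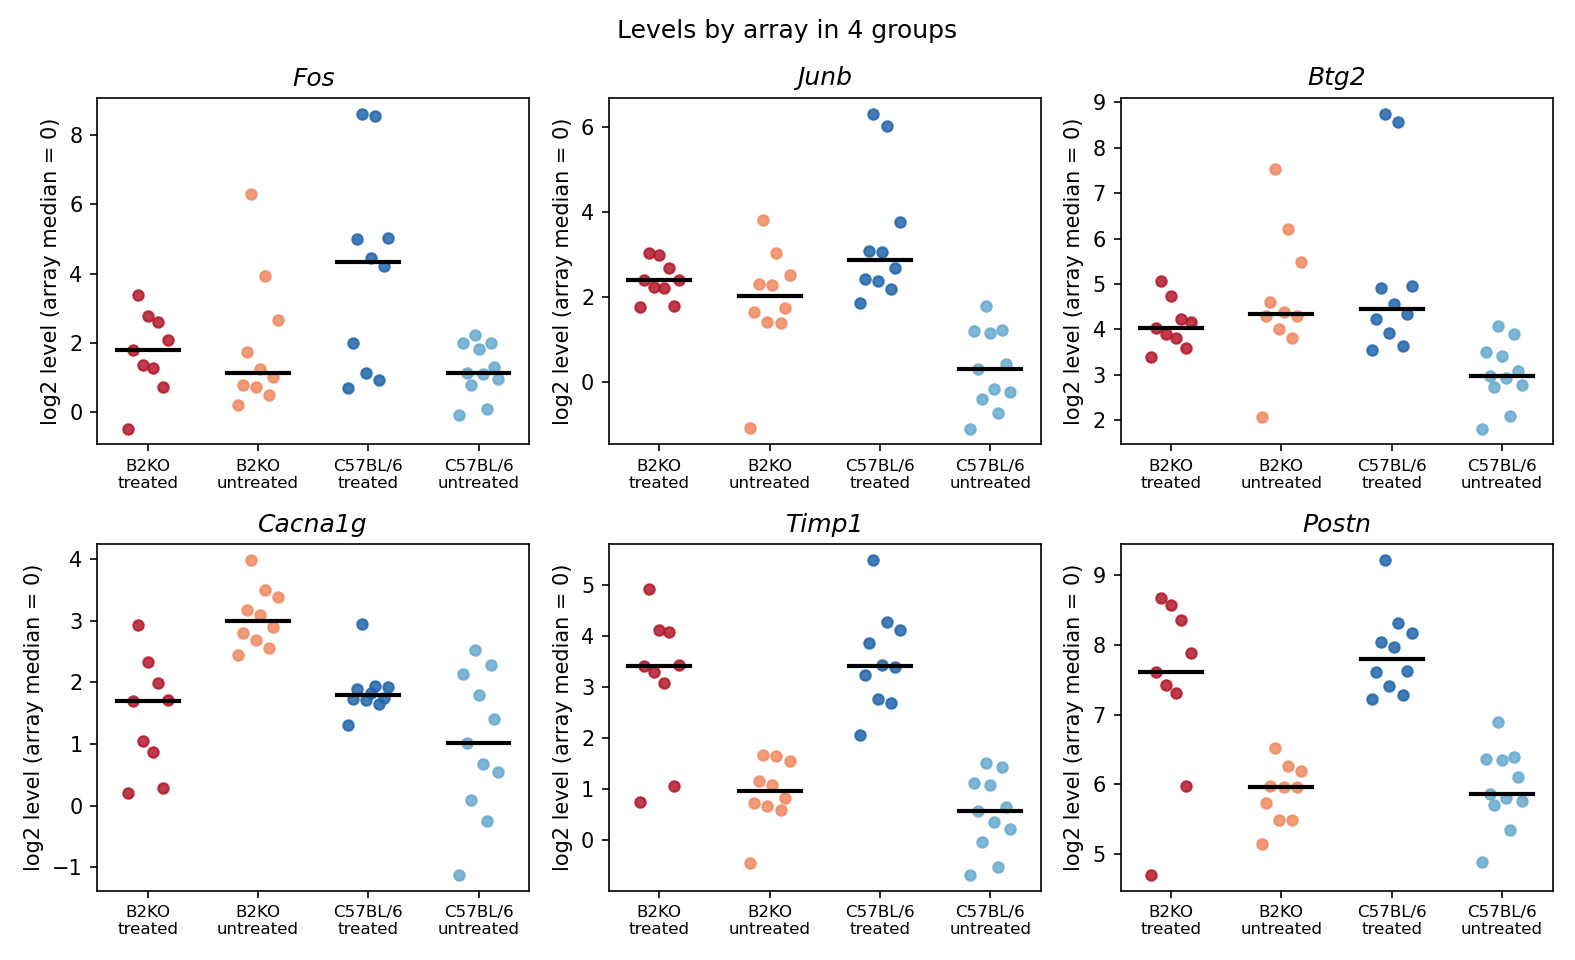
Levels of 6 genes (y axis, log2 relative to the array median) in each array of the 4 groups (x axis), with points for arrays and lines for medians. Fos, Junb and Btg2 separate treated from untreated hearts more in C57BL/6 than in B2KO, Cacna1g falls with treatment in B2KO, and Timp1 and Postn are higher in treated hearts of both lines.

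Receptors and kinases of the adrenergic pathway showed 2 of 8 tested genes lower in B2KO and 0 higher, against 4.26% lower and 1.34% higher over all genes. Adra1b, an alpha-1 adrenergic receptor, lay between −0.35 and 2.60 (median 1.70) in treated B2KO and between −0.94 and 3.29 (median 2.86) in untreated B2KO hearts. It lay between 2.31 and 3.12 (median 2.56) in treated C57BL/6 and between −0.68 and 2.17 (median 0.91) in untreated C57BL/6 hearts, which did not overlap. Its response difference was −2.12 ± 0.59 (limma adjusted p = 0.0226), and −2.07 with the covariate (limma adjusted p = 0.195). It missed the threshold with quantile normalization (limma adjusted p = 0.0683). Arrb1 (beta-arrestin 1), which uncouples and internalises activated receptors, had a response difference of −1.27 ± 0.36 (limma adjusted p = 0.0255), and −0.96 with the covariate. It changed by 0.23 in B2KO (limma adjusted p = 0.771) and rose by 1.50 in C57BL/6 (limma adjusted p = 5.41e-06), and missed the threshold with quantile normalization (limma adjusted p = 0.0992). Grk5, a kinase that phosphorylates activated receptors, had −0.67 ± 0.33 and did not pass (limma adjusted p = 0.212). Of 32 genes of cyclic AMP signalling, 1 was lower, the phosphodiesterase gene Pde2a (−1.11 ± 0.36, limma adjusted p = 0.0479, lost in 22 of 40 fits that left out 1 array). The cyclic AMP phosphodiesterase gene Pde4b had −0.71 ± 0.31 (limma adjusted p = 0.148).

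Matrix genes responded in both lines, and 1 of 45 tested had a response difference past the threshold (5.6% over all genes). Their median change was 0.60 in B2KO, where 3 rose, and 1.05 in C57BL/6, where 36 rose and 1 fell. Over all genes 0.109% rose in B2KO, and 18% rose and 9.13% fell in C57BL/6. Timp1, an inhibitor of matrix metalloproteinases, lay between 0.75 and 4.90 (median 3.41) in treated B2KO and between −0.44 and 1.67 (median 0.96) in untreated B2KO hearts. It lay between 2.05 and 5.48 (median 3.41) in treated C57BL/6 and between −0.67 and 1.52 (median 0.59) in untreated C57BL/6 hearts. In all, 7 of 9 treated B2KO hearts and 10 of 10 treated C57BL/6 hearts exceeded all untreated hearts of their line. The exceptions were treated B2KO replicates 5 and 7, at 0.75 and 1.06. The same arrays read 5.97 and 4.70 for the matrix gene Postn, where untreated B2KO hearts lay between 5.14 and 6.52. Timp1 rose by 2.17 ± 0.41 in B2KO (limma adjusted p = 0.00529) and by 3.01 in C57BL/6 (limma adjusted p = 1.56e-08), and the response difference of −0.84 ± 0.56 did not pass (limma adjusted p = 0.394).

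Periostin (Postn), which activated fibroblasts secrete into the matrix, rose by 1.52 in B2KO and by 1.94 in C57BL/6 (limma adjusted p = 0.00879 and 2.17e-06). Its response difference was −0.42 ± 0.44 (limma adjusted p = 0.618). Tnc (tenascin C) rose by 1.89 in B2KO and by 2.36 in C57BL/6, with a response difference of −0.48 ± 0.52 (limma adjusted p = 0.631). Cilp, a matrix gene of the stressed heart, changed by 1.40 in B2KO (limma adjusted p = 0.0843) and rose by 2.19 in C57BL/6. The collagen genes Col1a1 and Col3a1 changed by 0.77 and 0.69 in B2KO (limma adjusted p = 0.384 and 0.203) and rose by 1.50 and 1.03 in C57BL/6. Their response differences of −0.72 ± 0.49 and −0.34 ± 0.32 did not pass (limma adjusted p = 0.402 and 0.567). The matrix gene past the threshold was Timp3, another metalloproteinase inhibitor, at −1.05 ± 0.34 (limma adjusted p = 0.0479), a call lost in 24 of 40 fits that left out 1 array and with quantile normalization (limma adjusted p = 0.127). In the TGF-beta and BMP list 2 of 28 were lower (4.26% over all genes), Tgfb1 (−1.34 ± 0.41, limma adjusted p = 0.0369) and the activin subunit gene Inhbb (−1.71 ± 0.48, limma adjusted p = 0.0228). Tgfb1 missed the threshold with quantile normalization (limma adjusted p = 0.113) and in 13 of 40 fits that left out 1 array.

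Calcium and ion channel genes included the 1 gene that changed past the threshold in both lines among the 670. Cacna1g, which encodes a T-type calcium channel, lay between 0.21 and 2.94 (median 1.70) in treated B2KO and between 2.45 and 3.99 (median 3.00) in untreated B2KO hearts. It lay between 1.32 and 2.96 (median 1.79) in treated C57BL/6 and between −1.12 and 2.52 (median 1.02) in untreated C57BL/6 hearts. As many as 8 of 9 treated B2KO hearts were below every untreated B2KO heart, whereas the C57BL/6 groups overlapped and treated hearts of both lines had like medians. Cacna1g fell by 1.60 in B2KO (limma adjusted p = 0.0105) and rose by 0.86 in C57BL/6 (limma adjusted p = 0.0402). The response difference was −2.46 ± 0.48 (limma adjusted p = 0.00147), and −1.62 with the covariate (limma adjusted p = 0.169).

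Among 25 calcium cycling genes, 2 were lower (4.26% over all genes), Cacna1g and the calmodulin kinase gene Camk2a (−1.50 ± 0.36, limma adjusted p = 0.00769). Atp2a2, the calcium pump of the sarcoplasmic reticulum, had −0.68 ± 0.26 (limma adjusted p = 0.0931). Of 22 ion channel and gap junction genes, 2 were lower (4.26% over all genes), the potassium channel genes Kcnh2 (−1.77 ± 0.39, limma adjusted p = 0.0038) and Kcnj12 (−1.94 ± 0.48, limma adjusted p = 0.01). Kcnh2 carries the rapid delayed rectifier current and Kcnj12 an inward rectifier current of heart muscle. Kcnh2 lay between 3.09 and 5.10 (median 4.16) in treated B2KO, between 1.83 and 5.86 (median 4.62) in untreated B2KO, between 4.13 and 5.22 (median 4.96) in treated C57BL/6 and between 2.06 and 4.63 (median 3.51) in untreated C57BL/6 hearts.

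The genes of the fetal programme, which hypertrophy is known to reactivate, showed 1 of 20 lower in B2KO (4.26% over all genes). This was Npr1, a receptor for natriuretic peptides (−1.62 ± 0.52, limma adjusted p = 0.0474, lost in 23 of 40 fits that left out 1 array). Nppa (atrial natriuretic peptide) changed by 0.34 in B2KO (limma adjusted p = 0.464) and rose by 0.70 in C57BL/6 (limma adjusted p = 0.00132), and its response difference of −0.36 ± 0.25 did not pass (limma adjusted p = 0.402). Nppb had −0.16 ± 0.45, the beta myosin gene Myh7 0.45 ± 0.60 and skeletal actin, Acta1, 0.04 ± 0.60, with limma adjusted p of 0.879, 0.712 and 0.978. Myh7 was higher in untreated B2KO than in untreated C57BL/6 hearts by 1.59 (limma adjusted p = 0.00445). Of 23 sarcomere genes 2 were lower (4.26% over all genes), cardiac troponin I (Tnni3, −0.79 ± 0.25, limma adjusted p = 0.0435) and the Z-disc gene Ldb3 (−0.79 ± 0.26, limma adjusted p = 0.0488). Tnni3 and Ldb3 lost their calls in 19 and 26 of 40 fits that left out 1 array.

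Among metabolic genes, 2 of 30 of the fatty acid oxidation list were lower in B2KO (4.26% over all genes): the short-chain acyl-CoA dehydrogenase gene Acads (−1.11 ± 0.28, limma adjusted p = 0.0109) and Pdk4, the kinase that switches off pyruvate dehydrogenase (−1.71 ± 0.44, limma adjusted p = 0.0136). That list's median change was −0.49 in B2KO and 0.14 in C57BL/6, and its median response difference was −0.52, or −0.34 relative to all genes. In arrays with a control signal from 2 to 5 that median was 0.26, where the median of all genes was 0.13. Pdk4 lay between 5.65 and 8.90 (median 8.15) in treated B2KO, between 7.91 and 9.86 (median 8.37) in untreated B2KO, between 7.84 and 9.74 (median 8.42) in treated C57BL/6 and between 6.50 and 8.37 (median 7.99) in untreated C57BL/6 hearts. Pdp1, the phosphatase that switches pyruvate dehydrogenase back on, was the 1 of 25 genes of the tricarboxylic acid cycle list that passed, and it was higher in B2KO (1.13 ± 0.33, limma adjusted p = 0.0297). Pdp1 changed by −0.13 in B2KO and fell by 1.26 in C57BL/6 (limma adjusted p = 0.869 and 2.32e-05). The complex I gene Ndufa10 (−0.93 ± 0.25) was the 1 of 41 of the respiratory chain, and the glycolytic aldolase gene Aldoa (−0.88 ± 0.24) the 1 of 24 of glycolysis. Their limma adjusted p were 0.0179 and 0.0226.

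In the list of RNA splicing and RNA binding genes, 4 of 43 were lower and 0 higher in B2KO, against 4.26% lower over all genes. The list's median response difference of −0.20 was −0.02 relative to all genes. Hnrnpl, a repressor of splicing at many exons, had the most negative response difference of all named genes. It lay between 1.20 and 3.97 (median 3.34) in treated B2KO and between −0.12 and 4.93 (median 4.40) in untreated B2KO hearts. It lay between 3.50 and 4.31 (median 3.96) in treated C57BL/6 and between −1.73 and 3.90 (median 0.12) in untreated C57BL/6 hearts, so that the untreated C57BL/6 hearts varied most. The response difference was −3.96 ± 0.83 (limma adjusted p = 0.00274) and −3.95 with the covariate (limma adjusted p = 0.0618), and 1 of its 2 probe sets had this direction. Rbfox1, a splicing factor of muscle and nerve, fell by 1.06 in B2KO (limma adjusted p = 0.00633) and changed by 0.18 in C57BL/6 (limma adjusted p = 0.539). Of the 9 treated B2KO hearts, which ranged over 3.11 to 5.31, 8 were below all untreated B2KO hearts, 4.40 to 5.59. For Rbfox1 the response difference was −1.25 ± 0.30 (limma adjusted p = 0.00871), and −1.15 with the covariate (limma adjusted p = 0.169). With its 4 probe sets averaged it was −0.21 (limma adjusted p = 0.569). Its relative Rbfox2 (−2.31 ± 0.60) and Hnrnpu (−1.22 ± 0.27) were lower too, and both rose in C57BL/6, by 2.34 and 1.05. With probe sets averaged their response differences were −0.81 and −0.19 (limma adjusted p = 0.111 and 0.53), and that of Hnrnpl was −1.59 (limma adjusted p = 0.0154).

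Single members passed in several other lists, beside 4.26% lower and 1.34% higher over all genes. They are not read as results about their lists. The topoisomerase gene Top2a, which is active in dividing cells, was the 1 of 30 cell cycle genes (−2.21 ± 0.63, limma adjusted p = 0.0269), and the list's median was −0.67. Top2a changed by −0.07 in B2KO and rose by 2.14 in C57BL/6. Gclm, which takes part in glutathione synthesis, was lower (−1.94 ± 0.43, 1 of 25 antioxidant genes), as were the autophagy gene Map1lc3a (−1.37 ± 0.28, 1 of 34 genes of protein turnover), the ribosomal protein gene Rps6 (−1.31 ± 0.41, 1 of 24) and the clock-linked repressor gene Nfil3 (−2.08 ± 0.56, 1 of 17). The endothelin receptor gene Ednrb was higher in B2KO (1.15 ± 0.28, limma adjusted p = 0.0093, 1 of 16). Of 31 heat shock and folding genes 0 passed, and Hspa1a had −2.13 ± 1.02 (limma adjusted p = 0.201). In the interferon list 1 of 23 was lower, Irf7 (−1.59 ± 0.42, limma adjusted p = 0.0161), and 1 was higher, Irf9 (0.96 ± 0.29, limma adjusted p = 0.0365). Dio2, the deiodinase that activates thyroid hormone, changed by 1.01 in B2KO (limma adjusted p = 0.169) and rose by 2.44 in C57BL/6 (limma adjusted p = 1.26e-08), with a response difference of −1.43 ± 0.45 (limma adjusted p = 0.0457). Among 29 angiogenic genes 2 were lower, Igfbp5 (−1.15 ± 0.31) and Kdr, and among 27 cytokines and chemokines 1 was lower, Il34 (−1.92 ± 0.45). Probe sets of a gene disagreed in sign for 17 of the 67 named genes past the threshold, among them Gclm (1 of 2 in the direction given), Ednrb (1 of 3), Igfbp5 (1 of 2), Rps6 (1 of 2) and Hnrnpu (2 of 5). Averaging probe sets ended the calls of Rps6 (−0.18), Aldoa (−0.36), Igfbp5 (−0.55), Camk2a (−0.63), Pde2a (−0.67), Top2a (−0.76), Timp3 (−0.78), Dio2 (−0.80), Inhbb (−0.81), Gclm (−0.88), Ednrb (0.35), Aif1l (0.68) and Mdfi (1.06), among others. The calls of Rps6 and Irf9 were lost in 17 and 10 of 40 fits that left out 1 array. The Dio2 call was lost in 20 of 40 fits that left out 1 array.

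**Figure D4:**
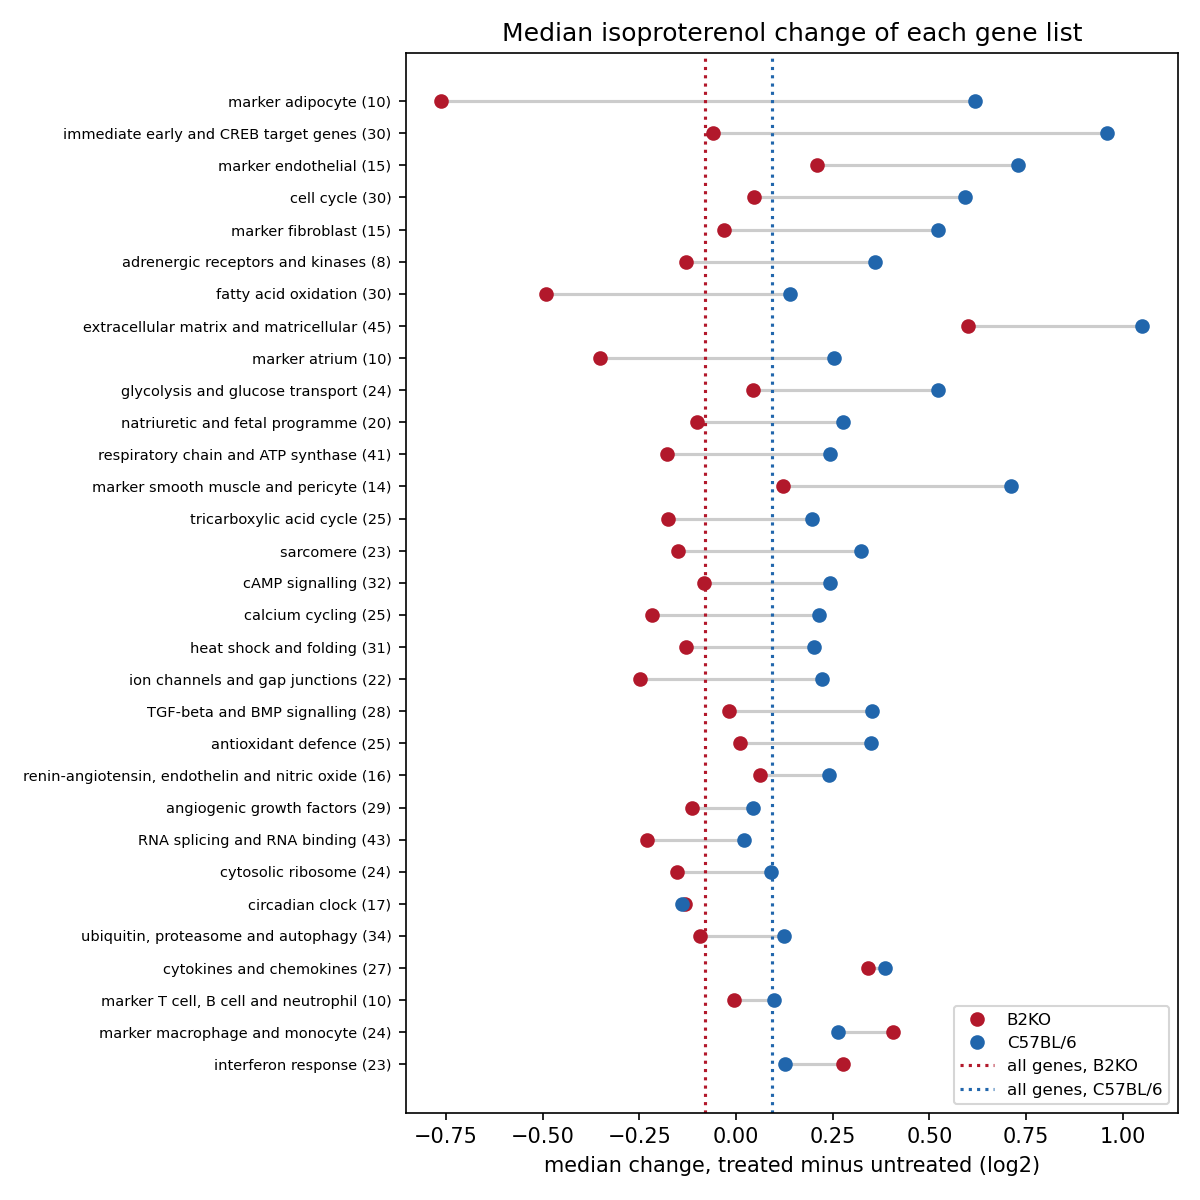
Median change with isoproterenol (x axis, log2, treated minus untreated) of each gene list (y axis, number of genes tested in parentheses; lists of 8 or more genes) in B2KO (red) and C57BL/6 (blue), with dotted lines for all genes tested. Immediate early genes have medians of −0.06 in B2KO and 0.96 in C57BL/6, and adipocyte markers of −0.76 and 0.62.

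Markers of other cell types were read as lists in the same way. In bulk hearts, fewer cells of a type and less RNA per cell cannot be told apart. Of 10 adipocyte markers tested, 2 were lower in B2KO (4.26% over all genes), the hormone-sensitive lipase gene Lipe (−2.03 ± 0.49, limma adjusted p = 0.00851) and the fatty acid binding protein gene Fabp4 (−0.80 ± 0.25, limma adjusted p = 0.0386). The list's median was −1.44. It was −1.23 with the covariate. The summed level of the 11 measured adipocyte markers, in multiples of the array median, lay between 853 and 1850 (median 1040) in treated B2KO, between 1100 and 2040 (median 1380) in untreated B2KO, between 1280 and 2340 (median 1890) in treated C57BL/6 and between 733 and 1560 (median 1230) in untreated C57BL/6 hearts. Fabp4, which is also on the endothelial list, had log2 medians of 9.85, 10.02, 10.49 and 9.78 in these groups, in the same order. The sums are linear, so this 1 gene makes up a large part of them. Leptin (Lep) was below the array median in all 4 groups. Ucp1, the uncoupling protein of brown fat, lay between −1.40 and 4.44 (median 1.15) in treated B2KO, between −1.13 and 4.99 (median 3.08) in untreated B2KO, between 0.56 and 6.93 (median 5.12) in treated C57BL/6 and between −0.50 and 3.63 (median 1.31) in untreated C57BL/6 hearts. Its response difference of −3.90 ± 1.31 did not pass (limma adjusted p = 0.0584). Whether adhering fat took part in the differences at other genes was not tested.

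Of 15 endothelial markers, 3 were lower in B2KO: the VEGF receptor gene Kdr (−1.21 ± 0.33), the tight junction gene Cldn5 (−1.30 ± 0.41) and Fabp4. Over all genes 4.26% were lower and 1.34% higher, which holds beside each count of markers here. The endothelial list's median was −0.71, −0.23 with the covariate and 0.11 in arrays with a control signal from 2 to 5. Its summed level had medians of 1400 in treated B2KO, 1550 in untreated B2KO, 2000 in treated C57BL/6 and 1380 in untreated C57BL/6 hearts. Fabp4 makes up a large part of this sum too, so the endothelial and adipocyte sums are not separate readings. Of 15 fibroblast markers 2 were lower, Clec3b (−1.57 ± 0.46) and Thy1 (−1.81 ± 0.53), and of 14 smooth muscle and pericyte markers 1, Lmod1 (−1.59 ± 0.39). Of 24 macrophage and monocyte markers 1 was higher, the complement gene C1qb (1.21 ± 0.38, limma adjusted p = 0.043), and 1 lower, the lectin gene Clec4d (−1.67 ± 0.52, limma adjusted p = 0.0405). Clec4d changed by 1.18 in B2KO (limma adjusted p = 0.158) and rose by 2.85 in C57BL/6. The calls of C1qb, Clec4d, Cldn5 and Fabp4 were lost in 22, 19, 23 and 15 of 40 fits that left out 1 array. None of the tested markers of lymphocytes and neutrophils (10), atrium (10), nerve and melanocytes (6), erythroid cells (3), skeletal muscle (3) or lung (2) passed by limma with adjusted p, and most lymphocyte and neutrophil markers listed were below the array median in every group.

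Beyond these lists, the most negative response differences belonged to genes that rose in C57BL/6 hearts. Otub1, a deubiquitinase, lay between 3.47 and 5.24 (median 4.28) in treated B2KO and between 0.63 and 5.09 (median 4.50) in untreated B2KO hearts. In C57BL/6 it lay between 2.90 and 4.47 (median 3.57) in treated and between −0.94 and 2.88 (median 0.97) in untreated hearts, without overlap. The response difference of Otub1 was −2.59 ± 0.63 (limma adjusted p = 0.00984), and −1.92 with the covariate. The glypican gene Gpc3 (−3.02 ± 0.66) and the Wnt signal transducer gene Dvl3 (−2.97 ± 0.63) had limma adjusted p of 0.00388 and 0.00306. Gpc3 rose in C57BL/6 by 2.43, to between 0.36 and 3.82 in treated C57BL/6 hearts, against −2.04 to 0.63 in untreated C57BL/6 hearts, and the B2KO hearts stayed at or under 1.00. The peroxisomal thiolase gene Acaa1b (−3.04 ± 0.69), the apolipoprotein gene Apoc1 (−2.85 ± 0.71) and the small GTPase gene Rasl10a (−2.62 ± 0.52) complete the 12 most negative differences past the threshold among genes with a full symbol. Acaa1b has a near-identical relative, so its probe set may read both.

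The most positive response differences belonged mostly to genes that fell in C57BL/6 hearts. Sema6c, a transmembrane semaphorin, lay between −0.36 and 3.42 (median 1.31) in treated B2KO and between −1.56 and 3.37 (median 0.91) in untreated B2KO hearts. In C57BL/6 it lay between −3.04 and 1.25 (median −2.03) in treated and between −0.27 and 4.28 (median 1.37) in untreated hearts. Its response difference was 3.91 ± 0.81 (limma adjusted p = 0.00269), and 2.68 with the covariate (limma adjusted p = 0.195), and 1 of its 3 probe sets had this direction. Cngb3, a subunit of the cyclic nucleotide-gated channel of cone photoreceptors, lay between −1.17 and 1.86 (median −0.04) in treated B2KO and between −0.89 and 2.10 (median 0.35) in untreated B2KO hearts. All 10 treated C57BL/6 hearts, −1.72 to 0.10 (median −0.87), were below all untreated C57BL/6 hearts, 1.37 to 2.81 (median 1.88). Its response difference was 2.61 ± 0.49 (limma adjusted p = 0.000999) and 2.35 with the covariate (limma adjusted p = 0.0545).

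The galactosyltransferase gene B3galt2 had the same form, with treated C57BL/6 hearts at −0.98 to 0.50 and untreated C57BL/6 hearts at 1.92 to 3.99. Its treated B2KO hearts lay between −0.71 and 2.28 and its untreated B2KO hearts between 0.19 and 2.46, and the response difference was 2.07 ± 0.46 (limma adjusted p = 0.00393). Epcam, an adhesion molecule of epithelia, had 2.80 ± 0.59 (limma adjusted p = 0.00306), with 1 of its 2 probe sets in this direction. It changed by 1.01 in B2KO (limma adjusted p = 0.332) and fell by 1.78 in C57BL/6. The noncoding transcript Plet1os was the exception among the 12, since its C57BL/6 change of −0.71 did not pass (limma adjusted p = 0.47). It lay between 2.23 and 6.41 in treated B2KO and between −1.92 and 5.80 in untreated B2KO hearts, and its response difference of 3.16 ± 1.01 (limma adjusted p = 0.0461) lost its call in 23 of 40 fits that left out 1 array. Others were Uroc1, an enzyme of histidine breakdown (2.38 ± 0.63), the Mediator subunit gene Med18 (2.17 ± 0.61), the actin-binding protein gene Aif1l (2.17 ± 0.65), the transcription regulator gene Mdfi (2.14 ± 0.58), Cyp4a31 (2.07 ± 0.49), Ccdc85a (2.00 ± 0.42) and Tuba3b (1.99 ± 0.50). Aif1l lost its call in 9 of those fits and Med18 in 1. The cytochrome P450 gene Cyp4a31 and the tubulin gene Tuba3b belong to families with near-identical members, and their treated and untreated B2KO medians were under the array median.

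Of the 43 genes that isoproterenol changed in B2KO, 5 were among the 670. Besides Cacna1g and Rbfox1 these were Ces1d, a carboxylesterase that hydrolyses lipids, the mitochondrial carrier gene Slc25a42 and the reticulon gene Rtn1, named because they complete this count. They fell in B2KO by 1.21, 0.86 and 1.08 and changed by −0.30, 0.11 and 0.12 in C57BL/6, with response differences of −0.91, −0.97 and −1.19 (limma adjusted p = 0.0358, 0.0306 and 0.0231). The count of 43 was 128 without treated B2KO replicate 5, 74 without treated B2KO replicate 7 and 24 without treated B2KO replicate 2.

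Against the FVB line in place of C57BL/6, the response of B2KO differed at 0 of 11961 genes by limma with adjusted p under 0.05, and at 545 genes with an unadjusted p under 0.05. Against C57BL/6 the unadjusted count was 2620. The poly-A control signal also differed between treated and untreated FVB arrays. With that signal as a covariate the unadjusted counts were 801 against FVB and 1184 against C57BL/6, and 0 genes differed from FVB by limma with adjusted p under 0.05. With array weights, 12 genes differed between the B2KO and FVB responses. Both comparisons use the same B2KO arrays. For Junb the FVB change was 0.30 and for Btg2 0.09, beside 0.48 and −0.57 in B2KO and 3.06 and 2.11 in C57BL/6. For Cacna1g it was −0.92, beside −1.60 in B2KO and 0.86 in C57BL/6.

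**Figure D5:**
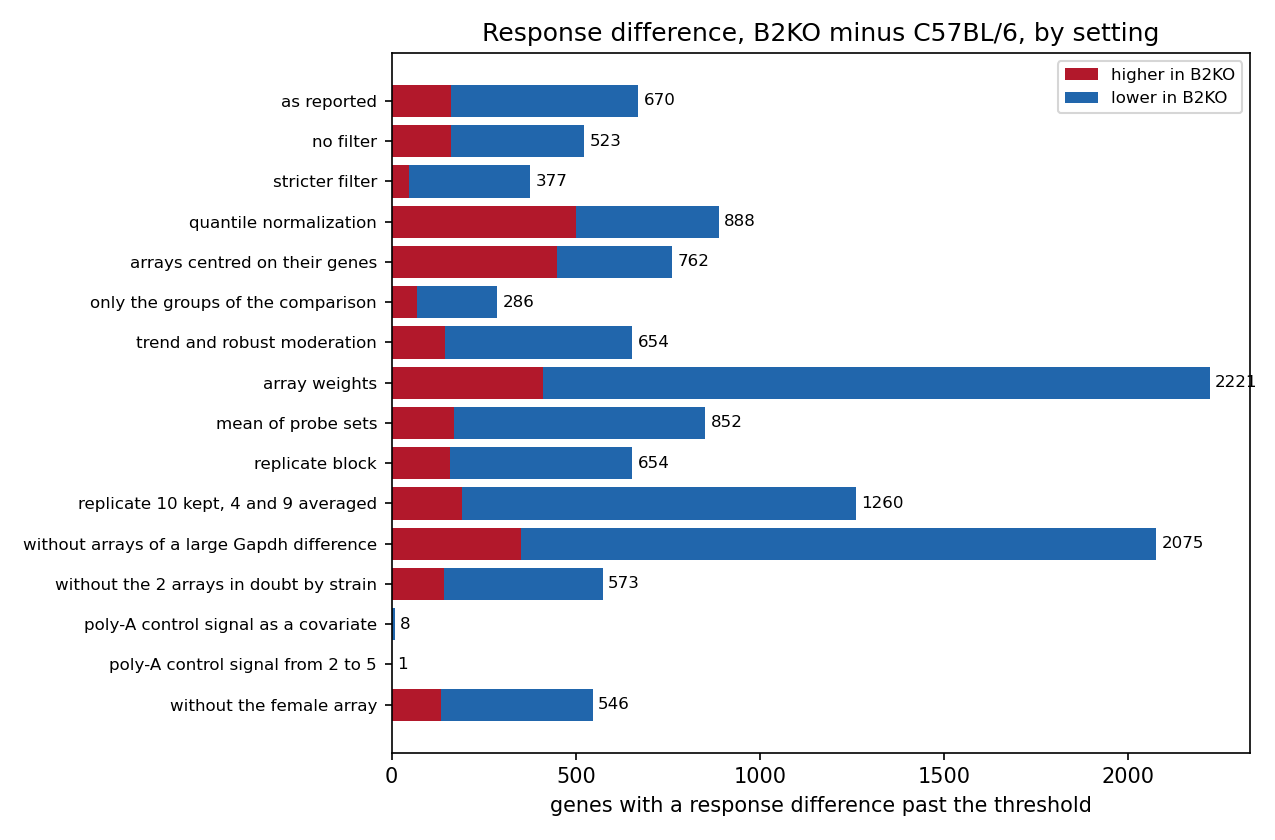
Number of genes with a response difference past the threshold (x axis) under each setting (y axis), divided into genes higher (red) and lower (blue) in B2KO. The count is 670 as reported, 8 with the poly-A control signal as a covariate, 1 in the arrays with a control signal from 2 to 5, and 2221 with array weights.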

How the data were processed

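Heart RNA of each mouse was hybridised to 1 Affymetrix array. The intensity values deposited by the authors came from GCRMA (version not given in the sources used here), per the submitters' processing notes, and every array had a median of 1. Log2 of the deposited values was used. Of 45101 probe sets, 34945 had 1 gene symbol in the platform annotation and gave 18193 genes, each read by its brightest probe set, with symbols updated from RefSeq (GRCm38.p6). The 11961 genes whose highest group mean exceeded log2 0 were tested. All 84 arrays of the 8 groups were fitted together with limma 3.58.1 in R 4.3.3 (two-sided tests, Benjamini-Hochberg adjustment over the genes tested, threshold 0.05). Treated B2KO replicates 9 and 10 were left out.

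The genes named were the 12 largest differences each way past the threshold among symbols other than Rik, Gm, LOC or accession-like ones, the members past it among the 4 of lowest p in each of 35 lists, and a fixed set, of which some were not analysed here. Members and lists were chosen with earlier results of these data known. Other genes are named where a count of few genes called for it. In simulated data, changes of 0.5, 1 and 2 log2 units were found for 0%, 26.9% and 89.4% of genes, and 2 of the unchanged genes were called. The simulated noise was independent between genes and arrays, with the same spread in every group. It held no shift like that of the poly-A control signal, so it does not measure false calls in the real arrays. Same replicate numbers were not treated as pairs (median correlations of −0.0312 to 0.0695 between groups). Between untreated B2KO and untreated C57BL/6, however, 5 of 10 same-numbered pairs had r over 0.1, the highest at 0.327. The source of these correlations was not tested. The number of arrays limits the precision: the median SE of a response difference was 0.323. Some genes are not reported here. The alternatives tried were other filters, scalings, moderation, array weights, probe set averages, a replicate block, left-out arrays and the poly-A control signal.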

Additional observations from a re-analysis of the deposited data

Results flagged for a closer look

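The 670 genes whose response differed between B2KO and C57BL/6 are themselves a difference between groups under 1 contrast, tested by the limma interaction. Among the values outside the main measurement, the poly-A control signal was higher in treated than in untreated C57BL/6 arrays by 5.52 log2 units between the medians, and with that signal in the fit 8 of the genes passed. Its part in single genes was not tested further.

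Single arrays stood apart from their group at some named genes: 37 of 258 combinations of gene and group (86 genes in 3 groups, since the 11 untreated C57BL/6 arrays were too many for the rule used) had an array whose distance from the next was large for the group's range, where chance gives about 1 in 20. In untreated B2KO replicate 8, the array of the large Gapdh difference, these were Hnrnpl at −0.12 (nearest array 3.08), Otub1 at 0.63 (nearest array 2.96), Junb at −1.06 (nearest array 1.39), Arrb1 at −0.64 (nearest array 2.04), Ier2 at 0.46 (nearest array 2.49), Tgfb1 at −0.31 (nearest array 2.69), Kcnh2 at 1.83 (nearest array 4.05), Cldn5 at 0.28 (nearest array 2.49), Lipe at −0.31 (nearest array 2.85) and Timp1 at −0.44 (nearest array 0.60). In treated C57BL/6 replicate 7 they were Ldb3 at 8.25 (nearest array 8.86), Top2a at 4.15 (nearest array 1.90), Thy1 at 6.05 (nearest array 3.61), Grk5 at 4.29 (nearest array 4.99) and Atp2a2 at 10.41 (nearest array 10.79). In treated B2KO replicate 7 they were Rps6 at 0.37 (nearest array 2.30), Grk5 at 2.56 (nearest array 4.20) and Pde4b at 2.82 (nearest array 3.90). In treated C57BL/6 replicate 3 they were Arrb1 at 3.89 (nearest array 3.37) and Cacna1g at 2.96 (nearest array 1.94). In untreated B2KO replicate 2 they were Aldoa at 10.58 (nearest array 9.84) and Myh6 at 12.53 (nearest array 11.94). In treated B2KO replicate 6 they were Nfil3 at 5.11 (nearest array 3.13) and Thy1 at 2.99 (nearest array 2.28). In untreated B2KO replicate 1 they were Ednrb at 2.26 (nearest array 3.37) and Lgi1 at −1.07 (nearest array 1.51). In treated B2KO replicate 11 they were Myh6 at 12.59 (nearest array 11.75) and Atp2a2 at 11.51 (nearest array 10.83). The remaining cases were Plet1os at 2.23 (nearest array 4.30) in treated B2KO replicate 2, Uroc1 at −2.28 (nearest array 0.22) in treated C57BL/6 replicate 6, Aif1l at 5.67 (nearest array 3.59) in treated B2KO replicate 4, Aif1l at 5.06 (nearest array 3.53) in untreated B2KO replicate 3, Gpc3 at 3.82 (nearest array 2.13) in treated C57BL/6 replicate 2. Also standing apart were Dvl3 at 0.28 (nearest array −0.66) in untreated B2KO replicate 4, Adra1b at −0.35 (nearest array 1.16) in treated B2KO replicate 3, Camk2a at 4.14 (nearest array 3.08) in treated C57BL/6 replicate 8 and Thy1 at 4.84 (nearest array 2.72) in untreated B2KO replicate 5.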

How the results depend on the processing

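The 670 genes with a response difference became 377 with a stricter filter, 286 with only the 4 groups fitted, 2221 with array weights, 1260 with treated B2KO replicate 10 kept, 2075 without the arrays of a large Gapdh difference, 8 with the poly-A control signal as a covariate and 1 in arrays with a signal from 2 to 5. They numbered 523 without a filter, 888 with quantile normalization, 762 with centred arrays, 654 with trend and robust moderation, 852 with probe sets averaged, 573 without the arrays in doubt by strain and 546 without the female array. Leaving out 1 array gave 368 to 1813: 368, 403 and 408 without untreated C57BL/6 replicates 6, 2 and 1, and 1813 without untreated B2KO replicate 8. With the replicate number as a block 654 genes passed (158 higher, 496 lower), a value that moved no count by over 1.5 times. The numbers mark no shared animal.

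The 43 genes changed in B2KO became 161 with quantile normalization, 151 with centred arrays, 1 with only its own groups, 1126 with array weights, 215 with replicate 10 kept, 93 without the arrays in doubt by strain and 0 in arrays with a signal from 2 to 5, where 124 had an unadjusted p under 0.05 by limma. They were 24 to 128 without 1 array, with 28 without untreated replicate 6 and treated replicates 1 and 4, 24 without treated replicate 2, 74 without treated replicate 7 and 128 without treated replicate 5. The 3243 in C57BL/6 became 1013 with the covariate, 6 in arrays with a signal from 2 to 5, and 2725 to 3801 without 1 array. The 1689 between untreated lines became 2544 with quantile normalization, 956 with only their groups, 3629 with array weights, 2774 without the arrays of a large Gapdh difference, 115 in arrays with a signal from 2 to 5, and 1319 to 2649 without 1 array, the highest without untreated B2KO replicate 8. Between B2KO and FVB, array weights gave 12 and each array left out gave 0.

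Of the 67 named genes past the threshold, 10 turned their sign in arrays with a signal from 2 to 5: Uroc1 (−0.32), Aif1l (−0.78), Pde2a (0.34), Timp3 (0.11), Ldb3 (0.20), Acads (0.07), Pdp1 (−0.13), Gclm (0.11), Igfbp5 (0.29) and Irf9 (−0.13). The other 57 missed the threshold there in their own direction, in a fit with 2 arrays in each of 2 groups. None turned under the other settings tried. The covariate ended 65 of the 67 calls, a fit of only the 4 groups 24, averaged probe sets 20, no filter 14, centred arrays 12 and quantile normalization 10. The cause of these changes was not tested.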

Other observations

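Some of the 43 genes that isoproterenol changed in B2KO were not described above. Fbp2, a muscle fructose bisphosphatase, fell by 1.22 in B2KO and by 1.11 in C57BL/6 (limma adjusted p = 0.00633 and 0.000316), and the acyl-CoA thioesterase gene Acot1 fell by 1.43 and 1.30 (limma adjusted p = 0.00552 and 0.000219). Hepcidin (Hamp), the regulator of iron export, fell by 1.47 in B2KO and by 2.03 in C57BL/6. For these genes the response differences were −0.11, −0.12 and 0.56, with limma adjusted p of 0.896, 0.897 and 0.442. The chemokine gene Ccl8 rose by 1.81 in B2KO (limma adjusted p = 0.0117) and changed by 0.33 in C57BL/6 (limma adjusted p = 0.548), and its response difference of 1.48 did not pass (limma adjusted p = 0.0836). The nicotinamide riboside kinase gene Nmrk2 rose by 1.64 in B2KO (limma adjusted p = 0.023) and changed by 0.34 in C57BL/6 (limma adjusted p = 0.52), with a response difference of 1.30 (limma adjusted p = 0.123). These genes were chosen after their values were seen.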
